A study of Homo sapiens with 4 samples.

Results

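Broad H3K27ac peaks, those of 3000 bases or more, were described in DU145, an established human prostate cancer line that was grown out of a metastasis to the brain. H3K27ac is histone H3 that carries an acetyl group on a lysine of its tail. The members were the rows of the DU145 H3K27ac peak list whose end minus start was 3000 bases or more, and they numbered 1234 of 50364 peaks, 2.45% (Wilson 95% interval 2.32 to 2.59). They were set against the 15881 H3K27ac peaks of 500 to 1000 bases, here called narrow peaks. The series holds 4 libraries: DU145 chromatin recovered with an antibody to H3K27ac, DU145 chromatin recovered with an antibody to CTCF, and input chromatin, taken with no antibody, of DU145 and of LNCaP, a prostate cancer line from a lymph node metastasis. All cells were fixed with formaldehyde, and the labels name no treatment or genetic change. Only the H3K27ac and CTCF peak lists were used. There was 1 library for each mark and no replicate, so no test between peak classes was made. Intervals cover counting error only.

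Acetylation of this lysine is placed by the acetyltransferases p300 and CBP on nucleosomes of active promoters and enhancers. Where many active elements lie side by side, as at genes of cell identity and at highly transcribed genes, the mark spreads over long stretches. CTCF is a zinc finger protein that binds a long DNA motif, stops cohesin at the anchors of chromatin loops and acts at insulators.

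The broad peaks spanned 5.51 Mb, 12.7% of all bases in H3K27ac peaks, a share that their choice by width raises above their share of the peaks. In the same list the narrow peaks were 31.5% of the peaks with 25.6% of the bases. The median width of the broad peaks was 3839 bases (quartiles 3331 and 4943), and the widest had 17714 bases. Of the 1234 members, 425 (34.4%) were under 3500 bases wide, 266 were from 3500 to under 4000, 247 from 4000 to under 5000 and 200 from 5000 to under 7000. Another 70 were from 7000 to under 10000 bases, and 26 (2.11%) were wider still. The median fold enrichment was 16.9 in the 85 members less than 100 bases above the limit and 17.2 in the 122 peaks up to 100 bases below it. A CTCF summit lay in 14 of those just above the limit, 16.5% (Wilson interval 10.1 to 25.8). It lay in 30 of those just below it, 24.6% (17.8 to 32.9), and the intervals overlap.

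**Figure D1:**
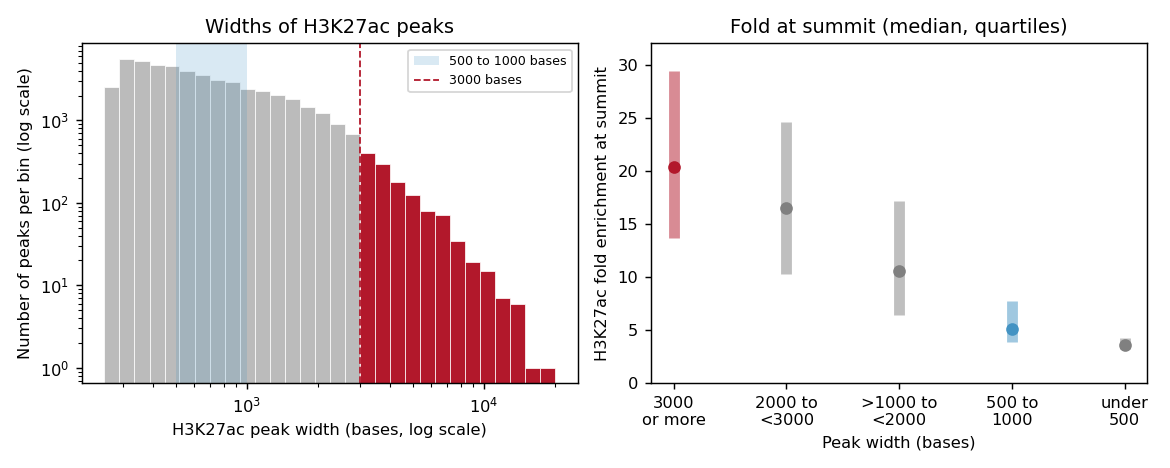
Left, number of H3K27ac peaks by width, both axes on log scales, with the broad peaks in red and the range of the narrow peaks shaded. Right, median (point) and quartiles (bar) of the authors' fold enrichment at the summit in 5 classes of width, which reads 20.4 for broad and 5.11 for narrow peaks.

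Broad peaks were also among the highest. Fold enrichment, the authors' ratio of H3K27ac fragments at a peak's summit to the local background, had a median of 20.4 in broad peaks (quartiles 13.7 and 29.4) and 5.11 in narrow peaks (quartiles 3.91 and 7.75). Width and fold come from the same library and the members were chosen by width, so these values are a description. Between those classes the median fold was 16.5 in peaks from 2000 to under 3000 bases and 10.5 in those over 1000 and under 2000. Of the broad peaks, 980 (79.4%) exceeded the 90th percentile of the narrow peaks. Of the 100 H3K27ac peaks with the highest fold, 38 were broad and 4 narrow. Width and height did not go together throughout: 145 broad peaks (11.8%) had a fold under 10, and 11 a fold under 5. The median number of fragments at the summit, solved from each peak's fold and p-value, was 117 in broad peaks (range 22 to 497) and 26 in narrow peaks (range 11 to 568). Local background moved with width as well, with a median of 4.67 fragments in broad and 3.89 in narrow peaks, and it was at the list's lowest level in 16.8% of broad and 30.6% of narrow peaks. Its part in the widths was not tested.

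The 20 widest broad peaks ran from 10600 to 17714 bases, and 12 of them held a CTCF summit, 22 summits in all. Of all broad peaks, with a median width of 3839 bases, 25.5% held a CTCF summit, and a wider peak offers more bases. A single peak on the contig gl000220, described below, held 5 of the 22 summits. They are given by position in hg19, counting from 1. No gene annotation of that build was used here, so no overlap with a gene, exon or start site was determined. A few well-known genes are named beside regions as landmarks. These names come from general knowledge of where the genes lie, not from a file; they were given after the peaks and their values had been seen, and they were not checked against an hg19 annotation.

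The widest peak, 17714 bases at chr7:130586364-130604077, had a fold of 19.9 from 127 fragments (exact Poisson 95% interval 106 to 151), near the median of the broad peaks. The second, 15778 bases at chr11:65255278-65271055, is in the neighbourhood of MALAT1, the gene of an abundant nuclear noncoding RNA. Its fold was 47.1 from 271 fragments (interval 240 to 305). On the same chromosome, the peak ranked 10 by width, 12370 bases at chr11:65184060-65196429, is in the neighbourhood of NEAT1, whose RNA is the scaffold of paraspeckles. Its fold was 35.1. None of these 3 peaks held a CTCF summit, and a single CTCF summit, with a CTCF fold of 10.3, lay 56 bases below the lower edge of the last.

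Other wide peaks held CTCF summits far from their edges. The fourth widest, 14227 bases at chr14:38052560-38066786, is in the neighbourhood of FOXA1, the gene of a pioneer factor that works with the androgen receptor in luminal prostate cells. Its fold was 38.6 from 209 fragments (interval 182 to 239). The next H3K27ac peak was 185 kb away on its lower side and 281 bases away on its upper side. It held 2 CTCF summits, with CTCF folds of 7.67 and 16.2, at 58.1% and 77.5% of its length, and another lay 161 bases beyond its upper edge. The peak of 12607 bases at chr1:156089699-156102305, in the neighbourhood of LMNA, the gene of lamins A and C, held 3 CTCF summits, at 29.3%, 49.1% and 84.2% of its length. Its fold was 18.8.

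Height and summit position differed widely among the 20 widest. The highest fold, 65.1 from 356 fragments (interval 320 to 395), was in the peak of 11846 bases at chr11:65656105-65667950, near FOSL1, the gene of an AP-1 subunit. Its summit lay at 96.7% of its length. It held 2 CTCF summits, both in its lower part, and a further one lay 174 bases below its lower edge. The peak of 11277 bases at chr12:12868829-12880105, near CDKN1B, the gene of an inhibitor of cyclin-dependent kinases, had a fold of 52.0 and 0 CTCF summits. The lowest fold on assembled chromosomes, 8.48 from 55 fragments (interval 41.4 to 71.6), was in the peak of 10981 bases at chr21:16424081-16435061, near NRIP1, the gene of a corepressor of nuclear receptors. It too held 0 CTCF summits.

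In 2 of the 20 widest, a CTCF summit lay just inside an edge. The third widest peak, 14251 bases at chr1:209819896-209834146, had its only CTCF summit 134 bases inside its lower edge, with a CTCF fold of 4.52. The peak of 10764 bases at chr19:13944674-13955437 had one 23 bases inside its lower edge, with a CTCF fold of 13.7, and another 83 bases from the H3K27ac summit, with a CTCF fold of 5.48. In the peak of 11519 bases at chr16:75275338-75286856 the only CTCF summit lay 168 bases from the H3K27ac summit. The remaining 8 on assembled chromosomes were at chr12:104677340-104691030, chr11:118779328-118792809, chr22:30642929-30654923 and chr17:43298300-43308899 with 1 CTCF summit each, chr12:120666405-120677810 with 2, and chr10:22597671-22610809, chr22:46467153-46477938 and chr10:95216331-95226998 with 0. Their folds ran from 22.9 to 43.1.

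One of the 20 widest was unlike the others. It spanned 14040 bases, from 122256 to 136295, of gl000220, an unplaced contig that carries ribosomal DNA, and its fold of 2.40 was the lowest of all 1234 broad peaks. It rested on 427 fragments over a local background of 177 fragments, and it held 5 CTCF summits with CTCF folds from 1.82 to 2.11, the most of any broad peak. The contig had 28 H3K27ac peaks, of which 7 were broad, and these 7 held 22 CTCF summits in 0.0400 Mb, 550 per Mb (exact Poisson interval 345 to 833). The median background of these 7 was 101 fragments, and 6 of the 11 broad peaks with a fold under 5 were on the contig. The part of background in these calls was not tested, and values for CTCF are given below with and without contigs outside the assembled chromosomes.

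The highest broad peaks covered a range of widths. Of the 10 with the highest fold, 1 was among the 20 widest, and their widths ran from 3019 to 11846 bases. The 20 widest are a small part of the 1234 broad peaks, so few of any 10 would fall among them. On assembled chromosomes the median fold was 18.4 in broad peaks from 3000 to under 3500 bases and 26.1 in those of 7000 bases or more. In the classes of width between these it was 20.5, 19.9 and 23.5, in order of width. The highest fold, 73.3, was in the peak of 9460 bases at chr12:52537750-52547209, which held 1 CTCF summit with a CTCF fold of 30.9. The next had folds of 71.6 at chr19:797279-802729, 69.8 at chr12:122235289-122243609 and 69.2 at chr16:28833453-28836970. The others were at chr11:65656105-65667950 (65.1), chr17:7476060-7479942 (64.6), chr16:87983561-87986579 (64.4), chr5:137877510-137880769 (62.6), chr20:60717008-60720087 (62.0) and chr6:17702408-17707223 (60.2). Of these 10 peaks, which were picked by fold, 5 held a CTCF summit, against 25.5% of all broad peaks. In some of them the H3K27ac summit lay toward an end, at 6.12% of the length on chromosome 19 and 10.2% on chromosome 17. On chromosomes 11 and 6 it lay at 96.7% and 88.1%. In the rest of the 10 it lay between 31.7% and 63.4% of the length.

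In broad peaks the summit was spread over more of the peak than in narrow ones. It lay in the middle part, between 33.3% and 66.7% of the length, in 51.9% of broad peaks (Wilson interval 49.2 to 54.7) and 58.4% of narrow peaks (57.6 to 59.2). In the outermost 10% at either end it lay in 7.78% of broad (6.41 to 9.41) and 1.09% of narrow peaks (0.939 to 1.26). That part is longer in bases in a broad peak, so these shares do not cover the same distance from an edge. The side of the lower coordinate held 51.8% of broad and 51.1% of narrow summits. The order for the middle part turned against peaks of 1000 to 2000 bases, of which 42.1% had a central summit. The spread was wider still among the widest peaks: 44.9% of those of 4000 bases or more and 4 of the 20 widest had the summit in the middle part. In bases, the summit of a broad peak lay a median of 661 from its centre and 1343 (quartiles 948 and 1685) from its nearest edge, and that of a narrow peak 98.5 from its centre. Since a peak has 1 summit in the list, further maxima within a broad peak do not show.

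**Figure D2:**
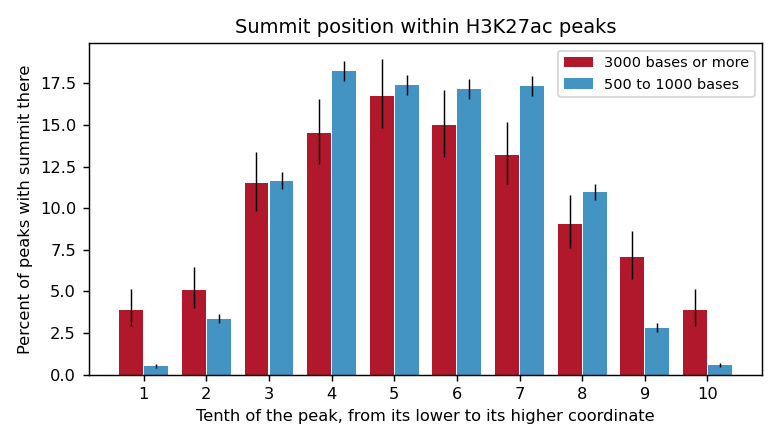
Percent of broad (red) and narrow (blue) H3K27ac peaks with the summit in each of 10 equal parts of the peak, from the lower to the higher coordinate; lines are Wilson 95% intervals. In the outermost parts broad peaks read 3.89% at each end, against 0.523% and 0.573% for narrow peaks.

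Most broad peaks had another acetylated region very close by. Another H3K27ac peak lay within 1000 bases of 919 of the 1234 broad peaks, 74.5% (Wilson interval 72.0 to 76.8), against 63.6% of narrow peaks (62.8 to 64.3) and 56.6% of all H3K27ac peaks. It lay within 200 bases of 36.2% of broad and 28.1% of narrow peaks. On both sides within 1000 bases it did so for 29.7% of broad (27.2 to 32.3) and 13.6% of narrow peaks (13.1 to 14.1). These neighbours were mostly small and low: the nearest peak to a broad one had a median width of 672 bases and a median fold of 4.42, and its fold was lower than that of the broad peak in 91.7% of cases. It was itself broad for 70 of 1234, or 5.67%, against 2.66% of the nearest peaks of narrow ones. Around a broad peak there was a median of 13 other H3K27ac peaks within 50 kb (quartiles 7 and 20), and around a narrow peak 7 (quartiles 3 and 14). The order at 1000 bases turned when weak peaks were left out: with a −log10 q of 10 or more, 41.1% of broad and 46.2% of narrow peaks had such a neighbour. How many close neighbours are pieces that the caller split from a broad region cannot be told from the lists.

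**Figure D3:**
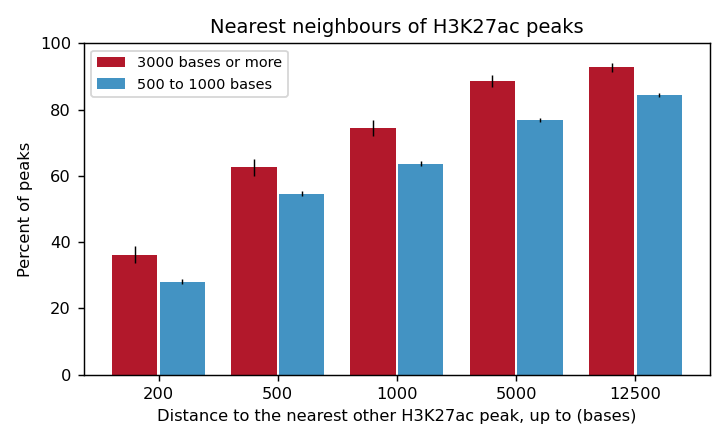
Percent of broad (red) and narrow (blue) H3K27ac peaks whose nearest other H3K27ac peak lies within each distance in bases; lines are Wilson 95% intervals. At 1000 bases the bars read 74.5% and 63.6%.

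Few broad peaks stood alone. No other H3K27ac peak lay within 10 kb of 95 of them, 7.70% (Wilson interval 6.34 to 9.32). That share was 17.6% for narrow peaks and 19.7% for all H3K27ac peaks. None lay within 50 kb of 22 broad peaks, 1.78% (1.18 to 2.68), against 5.96% of narrow peaks and 6.25% of all H3K27ac peaks. These shares were not computed with weak peaks left out. The most isolated had 3432 bases at chr19:28283536-28286967, with 1416 kb to its nearest H3K27ac peak and a fold of 21.5. The next 4 were at chr1:215740055-215743658 (959 kb), chr4:143011529-143014627 (447 kb), chr18:77438632-77441669 (264 kb) and chr12:46120425-46126562 (256 kb). Their folds ran from 11.9 on chromosome 4 to 29.2 on chromosome 18, within the range of the other broad peaks. Of these 5, the peak on chromosome 12 held a CTCF summit and the other 4 held 0, against 25.5% of all broad peaks with one.

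A minority of broad peaks came in runs. The nearest other broad peak was a median of 80.8 kb away (quartiles 9.62 and 590 kb). Joined within 12.5 kb, the 1234 broad peaks formed 1043 runs, of which 905 were single peaks and 138 held more than 1. These 138 runs held 329 broad peaks, 26.7% of them. Runs of narrow peaks were not counted. Of all H3K27ac peaks, 82.5% had another H3K27ac peak of any width within 12.5 kb, and of broad peaks 92.9% had one. There were 105 runs of 2, 22 of 3, 6 of 4 and 3 of 5 broad peaks, and 2 runs of 7. On assembled chromosomes the run with the most broad peaks had 7 in 47.5 kb at chr19:39138269-39185751, with 1 CTCF summit inside them. The other run of 7 was on gl000220, with 22 CTCF summits. Next were runs of 5 at chr11:795429-846836 with 1 CTCF summit, at chr6:44000742-44043644 with 2, and at chr15:67380304-67421732 with 0. The last is in the neighbourhood of SMAD3, the gene of a signal transducer of transforming growth factor beta, and its broad peaks had widths from 3180 to 5552 bases.

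Broad peaks made up a similar share of the H3K27ac peaks on most chromosomes. Among the autosomes the share was highest on chromosome 20, with 51 of 1587 peaks, 3.21% (Wilson interval 2.45 to 4.20), and on chromosome 19, with 99 of 3232, 3.06% (2.52 to 3.72). It was lowest on chromosome 13, with 10 of 599 peaks, 1.67% (0.909 to 3.05), and on chromosome 7, with 46 of 2633, 1.75% (1.31 to 2.32), although chromosome 7 has the widest peak of all. The intervals of chromosomes 20 and 13 overlap, while that of chromosome 7 lies below those of chromosomes 20 and 19. The interval of chromosome 7 also lies below the 2.48% of all autosomes, and that of chromosome 19 above it. Chromosome X had 4 of 712, 0.562% (0.219 to 1.44), with an interval below the 2.48% of all autosomes (2.35 to 2.63). Narrow peaks were 43.0% of the peaks of chromosome X, against 31.6% on chromosome 1. The largest number of broad peaks, 127, was on chromosome 1.

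**Figure D4:**
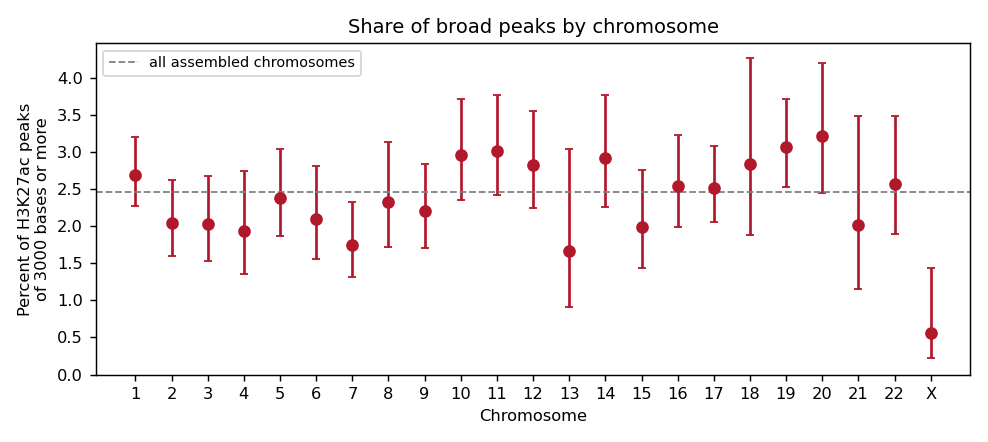
Percent of the H3K27ac peaks of each chromosome that are broad, with Wilson 95% intervals; the dashed line is the 2.45% of all assembled chromosomes. Chromosomes X, at 0.562%, and 7, at 1.75%, lie below the line with their whole intervals. Chromosome 19, at 3.06%, lies above it with its whole interval.

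A larger share of broad than of narrow peaks held a CTCF summit, while CTCF summits per Mb were close in the classes. A CTCF summit lay inside 315 of 1234 broad peaks, 25.5% (Wilson interval 23.2 to 28.0), against 718 of 15881 narrow peaks, 4.52% (4.21 to 4.86), and 5.66% of all H3K27ac peaks. More than 1 CTCF summit lay in 56 broad peaks, 4.54% (3.51 to 5.85), against 11 narrow peaks, 0.0693%, and 0.326% of all H3K27ac peaks. A broad peak offers more bases: 386 summits in 5.51 Mb of broad peaks gave 70.1 per Mb (exact Poisson interval 63.3 to 77.5), and 729 in 11.1 Mb of narrow peaks gave 65.7 per Mb (61.0 to 70.6). On assembled chromosomes the densities were 66.8 per Mb in broad and 66.1 per Mb in narrow peaks, and the shares 25.2% and 4.55%. More than 1 CTCF summit lay there in 49 of 1222 broad peaks, 4.01%, and in 11 of 15669 narrow peaks, 0.0702%. Density did not rise with width throughout. It was 34.4 per Mb in peaks under 500 bases, 91.5 per Mb (86.3 to 96.9) in those over 1000 and under 2000 and 80.8 per Mb (73.7 to 88.3) in those from 2000 to under 3000. Among narrow peaks with a −log10 q of 10 or more it was 94.5 per Mb, above the 70.2 per Mb of broad peaks under the same limit, so the order of the densities turned with that limit.

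Within the broad peaks of assembled chromosomes, the share with CTCF was highest in the widest peaks, while the density was not. Of the 420 peaks from 3000 to under 3500 bases, 22.9% held a CTCF summit (Wilson interval 19.1 to 27.1), against 44.2% (34.6 to 54.2) of the 95 peaks of 7000 bases or more. Their densities were 80.3 per Mb (65.9 to 96.9) and 66.7 per Mb (50.7 to 86.3), with the lowest density, 47.6 per Mb (35.9 to 62.0), in those from 5000 to under 7000. Over all contigs, the 315 broad peaks with a CTCF summit had a median H3K27ac fold of 26.4 and the 919 without one of 18.4. Their median widths were 3964 and 3800 bases. The broad peaks with the most CTCF summits on assembled chromosomes held 3 each. Besides that near LMNA, these included chr19:1247344-1257632, chr2:232570509-232577591, chr20:48806524-48811519, near CEBPB, the gene of a leucine zipper transcription factor, chr17:42294641-42298961, and chr11:69455932-69459659, near CCND1, the gene of cyclin D1. In the peak near CCND1 the CTCF folds were 27.5 for 1 summit and 4.89 for each of the others, which lay 530 and 285 bases from the upper edge.

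CTCF summits were sparse just inside the edges of broad peaks and dense just outside them. On assembled chromosomes, each base was given to its nearest H3K27ac edge. The first 250 bases outside broad peaks held 51 CTCF summits, 108 per Mb (exact Poisson interval 80.3 to 142), against 23 summits and 37.6 per Mb (23.9 to 56.5) in the first 250 bases inside. Outside narrow peaks the same band held 156 per Mb (146 to 166), above broad peaks with no overlap of the intervals. Inside narrow peaks it held 63.8 per Mb (58.3 to 69.7). From 250 to 500 bases outside, the densities had fallen to 37.2 per Mb beside broad and 35.0 per Mb beside narrow peaks, and from 2000 to 5000 bases to 18.4 and 17.4 per Mb. Into the broad peaks the density was higher with depth, at 52.4 per Mb from 250 to 500 bases, 66.3 from 500 to 1000 and 90.8 (74.7 to 109) from 1000 to 1500. Beyond 1500 bases it was 65.6 per Mb (54.3 to 78.7). The CTCF peaks at the outer edge were also the stronger ones: their median CTCF fold was 15.0 in the first 250 bases outside broad peaks (quartiles 7.47 and 18.6) and 8.08 for all 364 summits inside them (quartiles 5.45 and 14.4). For narrow peaks the same medians were 14.0 outside and 8.62 inside, and for the 32696 CTCF summits outside all H3K27ac peaks the median was 9.68.

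**Figure D5:**
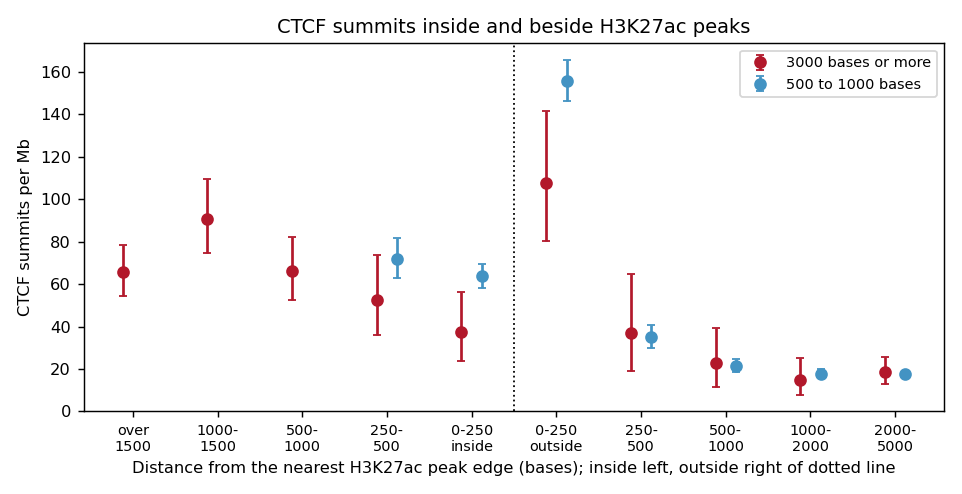
CTCF summits per Mb by distance in bases from the nearest H3K27ac peak edge, inside (left of the dotted line) and outside (right), for broad (red) and narrow (blue) peaks of assembled chromosomes; lines are exact Poisson 95% intervals. For broad peaks the points on either side of the edge read 37.6 inside and 108 outside.

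Over a full 1000 bases outside the edges, leaving out bases inside any H3K27ac peak, all contigs gave 63.7 CTCF summits per Mb beside broad peaks (exact Poisson interval 52.3 to 76.8) and 68.9 beside narrow peaks (65.6 to 72.4). On assembled chromosomes these were 60.7 and 69.2. The order turned for broad peaks of 4000 bases or more (71.4 per Mb, against 68.9 beside narrow peaks) and against peaks of 1000 to 2000 bases (63.7 per Mb beside broad peaks, against 58.3). Few peaks of either class had CTCF at both ends. For the following counts per peak, the 1000 bases outside an edge include bases inside neighbouring H3K27ac peaks. Of the 1222 broad peaks on assembled chromosomes, 127 (10.4%, Wilson interval 8.80 to 12.2) had a CTCF summit within 1000 bases outside at least 1 edge. At both edges 2 of them had one, 0.164%. For narrow peaks these were 12.6% and 85 of 15669, 0.542%. No CTCF summit lay inside or within 1000 bases of 825 broad peaks, 67.5% (64.8 to 70.1), against 83.4% of narrow peaks. In short gaps the shares with CTCF had overlapping intervals. Of 960 gaps of up to 500 bases with a broad peak on at least 1 side, 32 held a CTCF summit, 3.33% (2.37 to 4.67), against 336 of 7549 gaps beside narrow peaks with no broad peak, 4.45% (4.01 to 4.94). Where both sides were broad, 1 of 44 gaps held one.

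On assembled chromosomes, to which all values of this paragraph refer, CTCF summits inside broad peaks were denser around the H3K27ac summit than elsewhere. Within 300 bases of it there were 77 CTCF summits, 105 per Mb (exact Poisson interval 82.9 to 131), against 287 and 60.9 per Mb (54.0 to 68.3) over the rest of the same peaks. In narrow peaks the values were 70.0 per Mb (64.4 to 75.9) near the summit and 53.8 per Mb (45.3 to 63.4) elsewhere. The median distance between a CTCF summit and the H3K27ac summit of its broad peak was 769 bases, and 21.2% of the CTCF summits lay within 300 bases of it. By position along the broad peak, the density was 56.0 per Mb (46.5 to 66.8) in the outer 20% at each end, 73.9 (62.9 to 86.2) in the next 20% and 74.3 (59.0 to 92.4) in the central 20%, with intervals that overlap.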

How the data were processed

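ChIP libraries were made from formaldehyde-fixed, sonicated chromatin, per the labels' protocols. Bowtie, MACS2 and the hg19 build are named in the submitters' processing notes; their versions and settings, and the input behind the background, were not given in the sources used here. For each of 2 libraries the authors deposited a peak list with positions and summits, a score in whole numbers, a fold enrichment (a ratio to local background at the summit), and −log10 p and −log10 q values. In both lists −log10 q began at 1.31. Fold enrichments are the authors' values and were used within 1 list only.

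Fragments at each H3K27ac summit and the local background were solved from the deposited fold and −log10 p, with 1 added to both in the fold, and 100% of peaks were solved within 0.002 of −log10 p. Library totals are unknown, so precision is given per peak, by the number of fragments, and per share or density, by Wilson or exact Poisson 95% intervals. The solving of fragment numbers and the density counts were tested on simulated data; the intervals were not. Python 3.11.15, numpy 2.4.6, pandas 2.3.3 and scipy 1.17.1 were used. Widths are end minus start; a CTCF summit is inside a peak that contains its base.

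Regions named singly were the 20 widest broad peaks, the 10 with the highest fold, the 10 with the most CTCF summits, the 5 most isolated and the 5 largest runs. The landmark genes fall outside that rule, which asked for an hg19 annotation: they come from general knowledge and were chosen after the values were seen. Start sites, gene lists and peak sequences were not analysed here. The members and lists were chosen with earlier results of these data known. Input signal was not analysed here.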

Additional observations from a re-analysis of the deposited data

How the results depend on the processing

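Of 56 alternatives 22 stayed within the interval of the value reported, or within 1.5 times for a number, and 34 did not. The cause of the changes was not tested, except that a stricter list or limit holds fewer peaks by construction. The share with a CTCF summit was higher in broad than in narrow peaks under 7 of the 7 alternatives, and a central summit less frequent under 5 of 6. The order of the neighbour share held in 6 of 7, that of the density outside the edge in 5 of 7 and that of the density inside in 3 of 6. Broad peaks numbered 543 from 4000 bases, 2109 from 2500 bases and 2698 after joining peaks closer than 500 bases. From 4000 bases, 28.5% held CTCF, 82.3% had a neighbour and 44.9% a central summit, and both densities turned against narrow peaks, with 63.7 per Mb in broad and 65.7 in narrow peaks inside, and 71.4 and 68.9 outside; from 2500 bases, 22.6% held CTCF and 68.6% had a neighbour. With CTCF peaks of −log10 q of 10 or more, 19.5% of broad and 3.22% of narrow peaks held CTCF, at 50.9 and 46.5 per Mb, and the density outside narrow peaks was 59.5 per Mb. With H3K27ac peaks of −log10 q of 10 or more, 41.1% of broad peaks had a neighbour; of narrow peaks 46.2% had one, 6.81% held CTCF, at 94.5 per Mb inside and 82.8 outside, and 67.2% had a central summit. Against broad peaks, the orders of the inside density and the neighbour share turned there. Peaks of 1000 to 2000 bases in place of narrow ones, which turned the orders of both densities and of the central summit, gave 12.2% with CTCF, 91.8 per Mb inside, 58.3 outside, 55.6% with a neighbour and 42.1% with a central summit. Overlap of 1 base gave 28.4% of broad and 9.82% of narrow peaks with CTCF. The first 500 bases outside gave 86.5 per Mb for broad and 106 for narrow peaks. A neighbour lay within 500 bases of 62.6% and 54.6%, and within 5000 bases of 88.7% and 77.0%, of broad and narrow peaks. In the middle 50% lay 71.6% of broad and 84.7% of narrow summits. No paired analysis was possible because each mark has 1 library. Bands at the edges of broad peaks rest on 12 to 51 CTCF summits outside, which limits their densities.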
